A study of Mus musculus with 4 samples.

Results

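Cytoplasmic dynein is the motor that carries cargo along microtubules towards their minus ends, and 16 of the 45037 non-control probe sets on these arrays were assigned to its chains alone. They were all the probe sets whose only gene symbol in the platform annotation was Dync1h1, Dync1i1, Dync1i2, Dync1li1, Dync1li2, Dynll1, Dynlrb1 or Dynlt3, which are 8 of the 18193 genes with a probe set of their own. The light chain gene Dynll2 was left out by the choice of members. RNA came from the NIH/3T3 line of mouse embryo fibroblasts, with 2 pseudopodia arrays and 2 cell body arrays. The cells were grown with 10% calf serum. For all 4 samples they were then placed in serum-free medium above a porous membrane, with fibronectin on its lower face, through which protrusions grew for 1 h. Both compartments were fixed in 0.3% formaldehyde for 10 min, and crosslinks were reversed at 70 °C for 45 min. No sample without fibronectin was analysed here, so the values compare compartments of stimulated cells and not stimulated with unstimulated cells. The labels do not say whether the 2 samples of a compartment were grown apart. The p-values therefore reflect the spread between these samples alone, which may be technical.

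The motor is built around a pair of heavy chains, each with a ring of ATPase domains that steps along the microtubule. Intermediate chains and light intermediate chains bind the tail of the heavy chain, and light chains of the LC8, roadblock and Tctex families bind the intermediate chains as dimers. Long movements need dynactin and an adaptor that joins the motor to its cargo, and in migrating fibroblasts dynein is known for its work at the cell cortex, on the centrosome and on organelles.

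The dynein messages did not share 1 direction. The light chain Dynlt3 and the light intermediate chain Dync1li2 were higher in pseudopodia, the heavy chain Dync1h1 was lower there, and the light chains Dynll1 and Dynlrb1 had differences near 0. In a limma fit over 11320 genes, each represented by its brightest probe set, 3 of 7 tested dynein genes passed an adjusted p of 0.05, 2 of them higher in pseudopodia and 1 lower. Over all tested genes 14.6% passed, 5.92% in the higher direction and 8.69% in the lower. In a second fit over all probe sets, 7 of 15 tested dynein probe sets passed, 6 of them higher and 1 lower. The share over all 22519 tested probe sets was 11.7%, with 4.3% higher and 7.44% lower. Several of the 15 belong to the same gene and were read on the same arrays, so they are not separate evidence. The arrays of the compartments did not overlap for 4 of the 7 genes, a share near that of all tested genes (60.8%), nor for 10 of the 15 probe sets, where the share over all probe sets was 59.6%. With 1 array left out, a compartment has 1 array whose spread is assumed to be that of the other, and limma called 0 genes of any kind in each of those 4 fits. A call lost there does not set 1 gene apart from the rest, so the ranges of the log2 differences are given below.

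**Figure D1:**
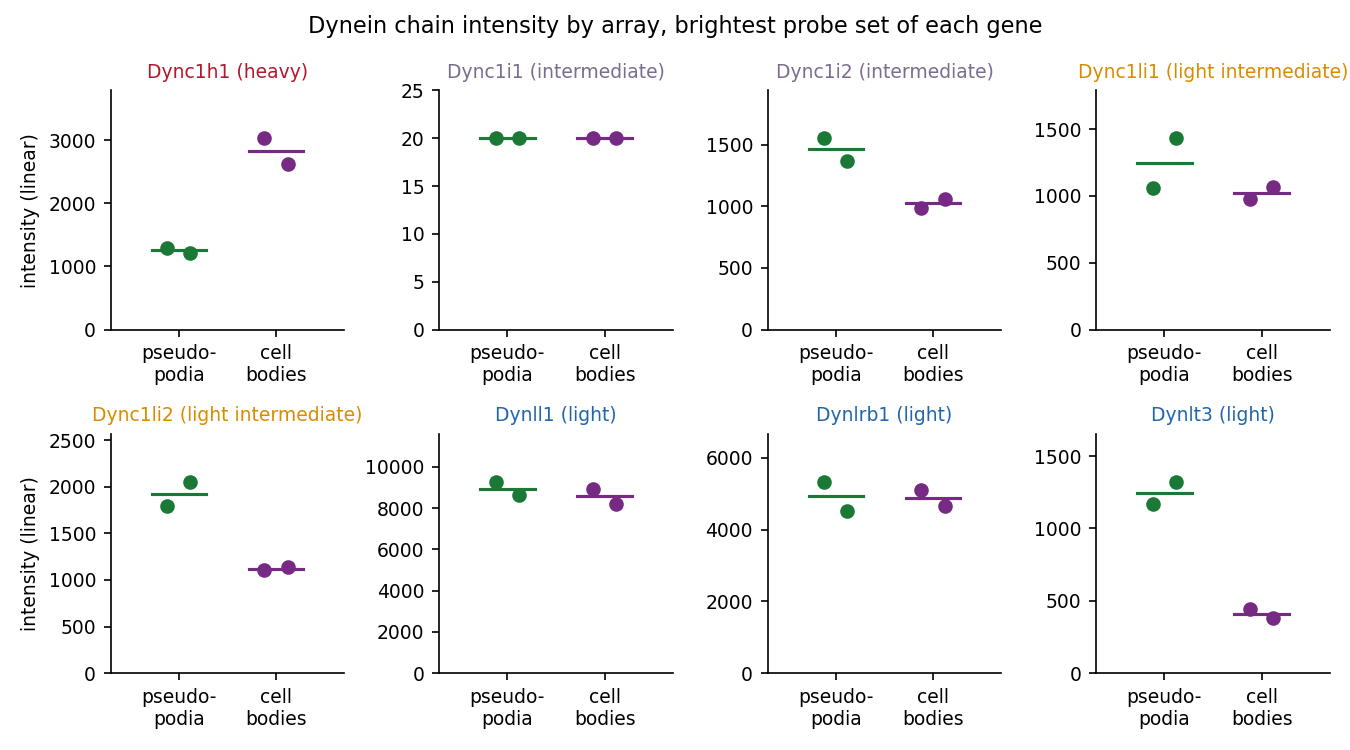
Intensity on a linear scale on each of the 4 arrays for the brightest probe set of the 8 dynein chain genes, with points for arrays and lines for the mean of 2. Dync1h1 was lower on both pseudopodia arrays, Dync1li2, Dync1i2 and Dynlt3 were higher on both, and Dync1i1 lay at the floor of 20 on all 4.

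Array intensities are relative within an array, and how the authors scaled the arrays to each other is not stated in the labels or headers. Fewer protrusions and less RNA in each protrusion therefore cannot be told apart, and a difference below is one in share of the RNA on the array. Correlations of log2 values over the tested genes were 0.983 and 0.984 within the compartments and 0.949 to 0.957 between them. The log2 differences of all tested genes had a median of -0.0020 and 5th and 95th percentiles of -1.10 and 0.84. Fibroblast markers were present on all arrays, apart from Thy1 at the floor. Of 9 tested, 0 had a difference above 0 and 4 were called lower in pseudopodia by limma, against 8.69% of all tested genes. Their median log2 difference was -0.69. The summed intensity of the 10 markers was 56922 to 57007 in pseudopodia against 73675 to 81169 in cell bodies. Of 6 haematopoietic markers with a probe set, 4 lay under the filter on low values, Itgam among them at the floor, and their summed intensity was 263 to 308 in pseudopodia and 298 to 364 in cell bodies. Of 7 epithelial markers 6 were tested and 0 passed by limma (2 at an unadjusted p under 0.05), with Krt18 at the floor and summed intensities of 2627 to 2725 and 2948 to 3792. The largest part of these sums was Krt14, at 1980 and 1835 in pseudopodia and 2665 and 2093 in cell bodies. Epcam read 248 and 348 against 604 and 471, so a lack of calls does not mean that these markers were absent. For the Actb control, 3′ over 5′ signal as a log2 ratio was 0.56 and 0.65 in pseudopodia and 0.37 and 0.36 in cell bodies. For Gapdh the ratio was -0.10 to -0.07 over the 4 arrays. For pyruvate carboxylase it was 2.61 and 2.32 in pseudopodia and 2.54 and 2.25 in cell bodies, so 3′ signal was well above 5′ signal on all 4 arrays. The compartment means of that ratio differed by 0.24 for Actb, by 0.03 for Gapdh and by 0.07 for pyruvate carboxylase, whose arrays overlapped. These compartment differences lie between the same arrays as every result below, and their part in the results was not tested.

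The heavy chain, which holds the motor domain, was the dynein gene with a lower level in pseudopodia. Dync1h1 (Entrez gene 13424) read 1300.2 and 1219 in the pseudopodia samples and 3028 and 2621 in the cell body samples at probe set 1416648_at. Both pseudopodia arrays lay below both cell body arrays. The means were 1259.5 ± 57.5 and 2825 ± 288 (SD, n = 2), and the log2 difference was -1.16 (SE 0.15, 95% interval -1.54 to -0.79, adjusted p = 0.0177 by limma), so the level was 2.24-fold higher in cell bodies. Arrays of the same compartment differed by 0.09 in pseudopodia and 0.21 in cell bodies on the log2 scale, against -1.31 to -1.01 over the 4 pairs of a pseudopodia array and a cell body array. The difference ranked 490 from the lowest among 11320 genes.

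The dimmer heavy chain probe set had a difference of the same sign. Probe set 1439950_at read 30.0 and 51.1 in pseudopodia and 142 and 92.8 in cell bodies. Its arrays did not overlap, but they differed more among themselves, and the pseudopodia arrays came close to the floor of 20. The log2 difference was -1.53 (SE 0.34, adjusted p = 0.0578, limma over all probe sets), which did not pass. With 1 array left out the log2 difference of the gene at its brightest probe set was -1.27 to -1.06 (adjusted p = 0.0658 to 0.0812, limma). Without the filter on low values the adjusted p was 0.0852, and the gene did not pass.

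The intermediate chains link the heavy chains to dynactin and to the light chains. Dync1i1, the form best known from neurons, was listed at the floor of 20 on all 4 arrays, so it was not tested and has no measured difference. Dync1i2, the widely expressed form, read 1551 and 1370.1 in pseudopodia and 988 and 1060.2 in cell bodies. Both pseudopodia arrays were higher, at 1460.4 ± 128 against 1024 ± 50.8 (SD, n = 2). The log2 difference was 0.51 (SE 0.14, 95% interval 0.14 to 0.88), or 1.42-fold, and did not pass at an adjusted p of 0.0780 (limma). It passed at 0.0440 with a stricter filter and at 0.0202 when limma let the variance follow intensity.

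The light intermediate chains, which bind cargo adaptors, both had differences above 0, and 1 of them rose. Dync1li2 read 1790.4 and 2052 in pseudopodia against 1105 and 1137 in cell bodies at probe set 1433926_at. Its compartments did not overlap, with means of 1921 ± 185 and 1121 ± 23.0 (SD, n = 2). The gene rose by 0.77 on the log2 scale (SE 0.14, 95% interval 0.41 to 1.14, adjusted p = 0.0307 by limma), a 1.71-fold difference. The dimmer probe set 1433925_at read 372 and 387 in pseudopodia and 194 and 157 in cell bodies, again without overlap. It rose by 1.11 (SE 0.17, adjusted p = 0.0291, limma over all probe sets). With 1 array left out the difference of the gene was 0.68 to 0.87 (adjusted p = 0.0924 to 0.124, limma). Without the filter it did not pass, at an adjusted p of 0.101.

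The paralogue Dync1li1 read 1057 and 1431 in pseudopodia and 976 and 1069 in cell bodies. These arrays overlapped, since the lower pseudopodia array lay under the higher cell body array. The log2 difference was 0.27 (SE 0.19, adjusted p = 0.412 by limma), and its 95% interval of -0.23 to 0.77 includes 0 and reaches the value of Dync1li2. The difference was 0.05 without pseudopodia array 2 and 0.49 without pseudopodia array 1. The difference between the paralogues was not tested.

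Of the light chains, Dynlt3 of the Tctex family had the highest difference of the tested dynein genes. Its brightest probe set, 1449929_at, read 1170.0 and 1322 in pseudopodia and 444 and 379.9 in cell bodies. Every pseudopodia value was above every cell body value, at 1246 ± 108 against 412 ± 45.6 (SD, n = 2). Dynlt3 (Entrez gene 67117) rose by 1.60 on the log2 scale (SE 0.16, 95% interval 1.19 to 2.00, adjusted p = 0.0166 by limma), a 3.02-fold difference that ranked 38 from the highest among 11320 genes. Arrays of the same compartment differed by -0.18 (pseudopodia array 1 minus 2) and 0.23 (cell body array 1 minus 2), against 1.39 to 1.80 over the 4 pairs across compartments.

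All 4 probe sets of Dynlt3 rose and had arrays that did not overlap. Probe set 1459854_s_at read 916 and 969 in pseudopodia and 367 and 281 in cell bodies and rose by 1.55 (SE 0.19, adjusted p = 0.0242, limma over all probe sets). Probe set 1420614_at read 517 and 818 against 246 and 146 and rose by 1.77 (SE 0.35, adjusted p = 0.0452). It had the widest spread of the 4, and with the replicate number as a block its adjusted p was 0.0543. The dimmest, 1449928_at, read 122 and 132 against 60.8 and 53.6 and rose by 1.14 (SE 0.15, adjusted p = 0.0263). At the brightest probe set the difference was 1.48 to 1.71 with 1 array left out (adjusted p = 0.0601 to 0.0812, limma). Without the filter the gene did not pass, at an adjusted p of 0.0829.

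**Figure D2:**
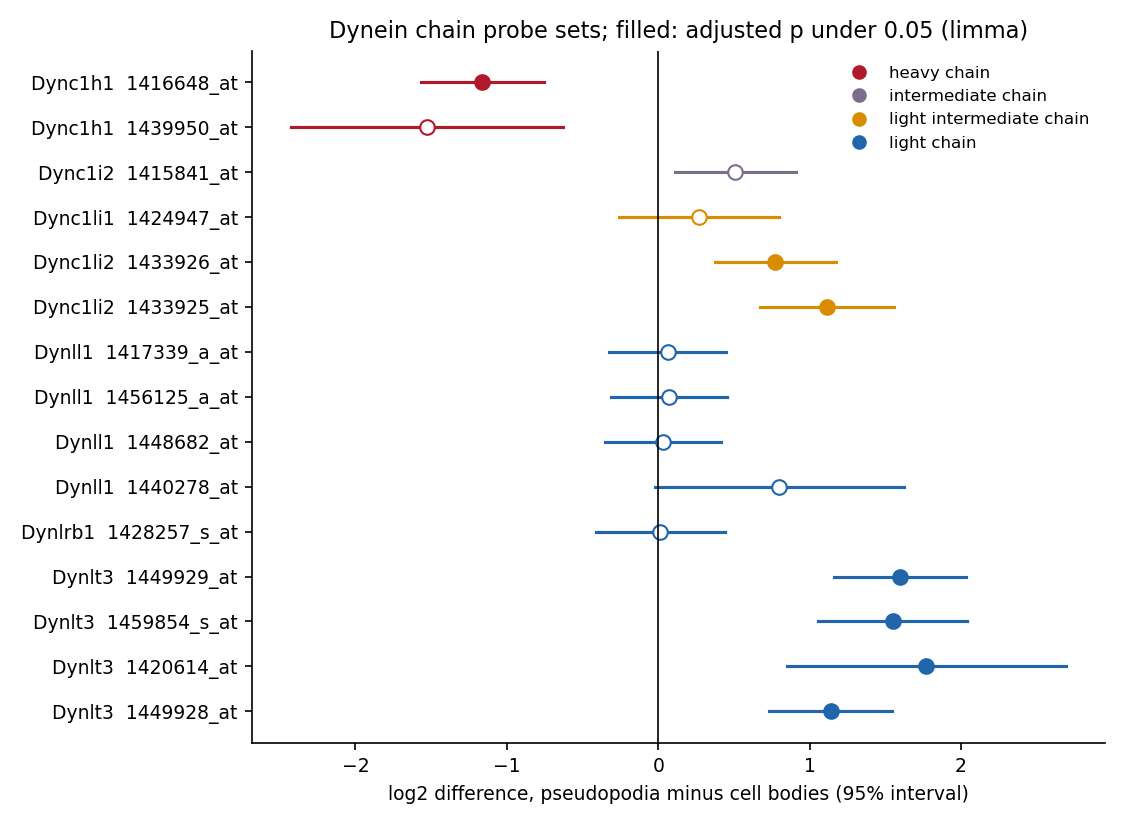
Log2 difference (pseudopodia minus cell bodies) with its 95% interval for the 15 tested dynein chain probe sets, coloured by the kind of chain and filled where the adjusted p over 22519 probe sets was under 0.05. The 4 Dynlt3 and 2 Dync1li2 probe sets lie to the right of 0, both Dync1h1 probe sets to the left, and the 3 bright Dynll1 probe sets and Dynlrb1 on 0.

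Dynll1, the LC8 light chain that also binds many proteins outside the motor, showed no call at any of its 4 probe sets. Probe set 1417339_a_at read 9274 and 8619.6 in pseudopodia and 8950.4 and 8184 in cell bodies, which overlapped. The log2 difference was 0.06 (SE 0.14, 95% interval -0.29 to 0.42, adjusted p = 0.798 by limma), and the interval leaves out differences as large as those of Dynlt3 or Dync1h1. The bright probe sets 1456125_a_at and 1448682_at had differences of 0.07 and 0.03 (adjusted p = 0.800 and 0.915, limma over all probe sets).

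These 3 Dynll1 probe sets read from 5831 to 9274, on arrays whose highest values were 13766 to 15025, and a difference can be compressed near the top of the scale. The dim Dynll1 probe set 1440278_at read 167 and 139.7 in pseudopodia and 117 and 65.4 in cell bodies, without overlap. Its log2 difference was 0.80 (SE 0.31, 95% interval -0.02 to 1.62, adjusted p = 0.179, limma over all probe sets), which did not pass. It was 0.39 without cell body array 2 and 1.21 without cell body array 1. With all 4 probe sets averaged, the gene's difference was 0.24 (adjusted p = 0.394, limma). Probes of LC8 and roadblock genes can match related copies, and the probe sequences were not used here, so the share of such signal is not known.

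Dynlrb1, the roadblock light chain, was measured by 1 probe set, 1428257_s_at. It read 5335 and 4530.5 in pseudopodia and 5099 and 4662 in cell bodies. The pseudopodia values lay on either side of both cell body values. The log2 difference was 0.01 (SE 0.15, 95% interval -0.38 to 0.41, adjusted p = 0.969 by limma), and its sign turned with median centring of the arrays, at -0.02. Dynlrb2, the other roadblock gene, read 20 on 3 arrays and 26.1 on cell body array 1, under the filter. Dynlt1f, of the Tctex family like Dynlt3, read 25.6 to 33.7 on the 4 arrays and was not tested either. Other probe sets of the Dynlt1 copies carried several symbols and were not used here.

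Ordered by their log2 differences, the tested genes ran from Dynlt3 through Dync1li2, Dync1i2, Dync1li1, Dynll1 and Dynlrb1 to Dync1h1. Over the 4 pairs of arrays across compartments, Dync1li2 ranged from 0.65 to 0.89 and Dync1i2 from 0.37 to 0.65. Their ranges touched at 2 decimals, and those of Dync1i2 and Dync1li1 (-0.02 to 0.55) overlapped. The ranges of Dynll1 (-0.05 to 0.18) and Dynlrb1 (-0.17 to 0.19) overlapped each other and that of Dync1li1. At the brightest probe set of each gene, used for these ranges, Dynlt3 and Dync1h1 each stood clear of their neighbour in the order. At dimmer probe sets, the pairs of Dync1li2 at 1433925_at (0.94 to 1.29) overlapped those of Dynlt3 at 1449928_at (0.99 to 1.29) and 1420614_at (1.07 to 2.47).

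**Figure D3:**
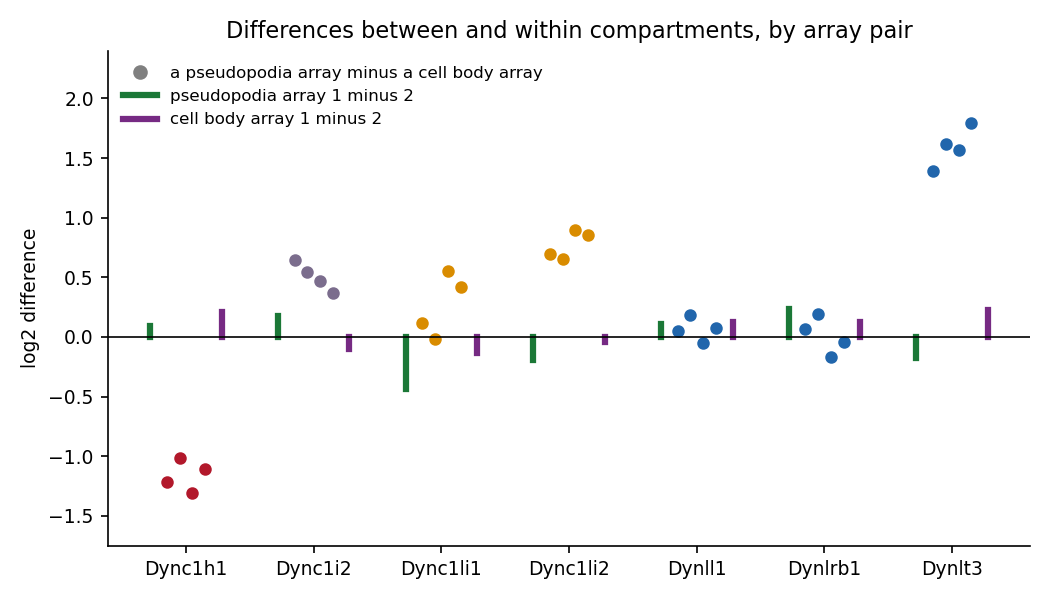
Log2 difference for each of the 4 pairs of a pseudopodia and a cell body array (points) at the brightest probe set of the 7 tested dynein genes, with bars for the difference between the 2 arrays of a compartment. All 4 points of Dync1h1 lie below -1 and all 4 of Dynlt3 above 1.39, beyond the bars of both compartments, while those of Dynll1 and Dynlrb1 lie on both sides of 0.

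The heavy chain was then set against the light chains within the same arrays, a contrast that a scaling factor applied to a whole array cannot move. The log2 difference of Dync1h1 minus the mean of Dynll1, Dynlrb1 and Dynlt3 was -1.72, and it ranged from -1.76 to -1.68 over the 4 pairs of arrays. In fold terms, the ratio of heavy chain to the geometric mean of the 3 light chains was 3.29-fold higher in cell bodies. A mean of log2 values counts each light chain alike, whatever its intensity, so this is not a ratio to their summed signal. Against Dynll1 alone the value was -1.22 (pairs from -1.27 to -1.18), and against Dynlrb1 alone -1.17 (pairs from -1.28 to -1.06). Against Dynlt3 it was -2.76, with pairs from -2.90 to -2.61. The contrast was thus below 0 against each light chain in all 4 pairs of arrays, and Dynlt3 moved the mean further from 0 than the others did. The contrast is given as a description, with no test. It was -1.93 with the mean of all probe sets of each gene and -1.97 without probe sets whose names end in _s_at, _x_at or _a_at, which leaves out Dynlrb1.

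Beyond its own chains, 66 partner genes in 5 lists were looked up, of which 55 had a probe set of their own and 39 were tested. Of these, 4 were higher in pseudopodia and 2 lower, with a median log2 difference of -0.01. The share called, 6 of 39, lies near the 14.6% of all tested genes. Without the filter 0 partner genes passed by limma, with 11 at an unadjusted p under 0.05.

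Dynactin, the complex that keeps dynein on its track, had 10 tested members of 12, of which 2 rose, 0 fell and 8 did not pass, with a median of 0.19 against -0.0020 over all tested genes, of which 5.92% were called higher. Both that rose are capping protein subunits, which dynactin shares with the ends of actin filaments. Capza2 read 3468 and 3465 in pseudopodia and 1852 and 2178 in cell bodies and rose by 0.79 (SE 0.15, adjusted p = 0.0322 by limma). Capza1 read 3183 and 2986 against 1744 and 1988 and rose by 0.73 (SE 0.14, adjusted p = 0.0359). In the fit over all probe sets the adjusted p was 0.0454 for that probe set of Capza2 and 0.0504 for that of Capza1, which did not pass. The dimmer probe set 1423058_at of Capza2 had a difference of 0.70 (adjusted p = 0.0613, limma over all probe sets). For 1452038_at of Capza1 it was 0.57 (adjusted p = 0.0957), and neither passed. No member of dynactin that is not also a capping protein subunit passed. Dctn1, the p150Glued subunit that binds dynein and microtubules, read 2066 and 2239 in pseudopodia and 2721 and 2495 in cell bodies, with a difference of -0.28 (SE 0.14, adjusted p = 0.247 by limma). Dctn2, the dynamitin subunit, had a difference of -0.03 (SE 0.14, adjusted p = 0.904).

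Among the adaptors and regulators, 19 of 25 were tested, of which 1 rose, 2 fell and 16 did not pass, with a median of -0.17. These counts lie near the shares over all tested genes, of which 5.92% were called higher and 8.69% lower. Trak2, which joins mitochondria to motors, read 782 and 926 in pseudopodia and 281 and 259 in cell bodies and rose by 1.65 (SE 0.15, adjusted p = 0.0166 by limma). It also belongs to the known protrusion RNAs, which were in part chosen on these samples. Numa1, which holds dynein at the cell cortex in mitosis and is nuclear in interphase, read 628 and 629.8 against 1507 and 1529 and fell by 1.27 (SE 0.13, adjusted p = 0.0166), and its probe set 1423974_at fell by 1.00 (adjusted p = 0.0333 over all probe sets).

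Mapk8ip3, the scaffold JIP3, fell as well. It read 85.0 and 81.0 in pseudopodia and 183 and 243 in cell bodies, with a difference of -1.33 (SE 0.18, adjusted p = 0.0189 by limma). Its probe set 1416437_a_at fell by 1.35 (adjusted p = 0.0246, limma over all probe sets), while 1436676_at had a difference of 0.20 (adjusted p = 0.731, limma over all probe sets).

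For other regulators the probe sets differed. Bicd2, an adaptor of vesicles and nuclei, had a difference at its brightest probe set of -0.90 (SE 0.22, adjusted p = 0.0582 by limma), while the dimmer 1437875_at and 1450733_at had -0.89 and -1.19 and passed on their own (adjusted p = 0.0378 and 0.0352). Its probe set 1437491_at, dimmer still, had 0.46 (adjusted p = 0.331). Pafah1b1, which encodes the dynein activator Lis1, differed by -0.00064 at its brightest probe set (SE 0.13, adjusted p = 0.998), while 1417086_at gave 0.84 (adjusted p = 0.0395 over all probe sets). Its remaining probe sets did not pass: 1448578_at gave 0.75 (adjusted p = 0.0604 over all probe sets), 1427703_at 0.65 (0.453) and 1439656_at -0.02 (0.962). Ndel1, which works with Lis1, had -0.15 (SE 0.13, adjusted p = 0.507) and, at the dimmer 1424893_at, -0.96 (adjusted p = 0.0395 over all probe sets). Nde1 had a difference of -0.0068 (SE 0.19, adjusted p = 0.987), and the endosome adaptor Hook3 of -0.23 (SE 0.20, adjusted p = 0.505). The dimmer Hook3 probe set 1439196_at had a difference of 0.32 (adjusted p = 0.289 over all probe sets).

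The other dynein motors had few measured chains. In the dynein of intraflagellar transport, 1 of 5 tested members rose and 4 did not pass, with a median of 0.21. The share called higher over all tested genes was 5.92%. The light chain Tctex1d2 read 797 and 739 in pseudopodia and 480.2 and 474 in cell bodies and rose by 0.68 (SE 0.13, adjusted p = 0.0339 by limma), and its other probe set rose by 0.84 (adjusted p = 0.0336 over all probe sets). Its heavy chain Dync2h1 read 54.5 and 45.9 against 58.4 and 31.9, with a difference of 0.21 (SE 0.31, adjusted p = 0.703). In axonemal dynein, the motor of motile cilia, 10 of 15 genes with a probe set lay under the filter, and 0 of 5 tested passed by limma, with 1 at an unadjusted p under 0.05. That was Dnali1, with a difference of 0.42 (SE 0.15, adjusted p = 0.138). Dnal4 had a difference of -0.01 (SE 0.16, adjusted p = 0.970).

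**Figure D4:**
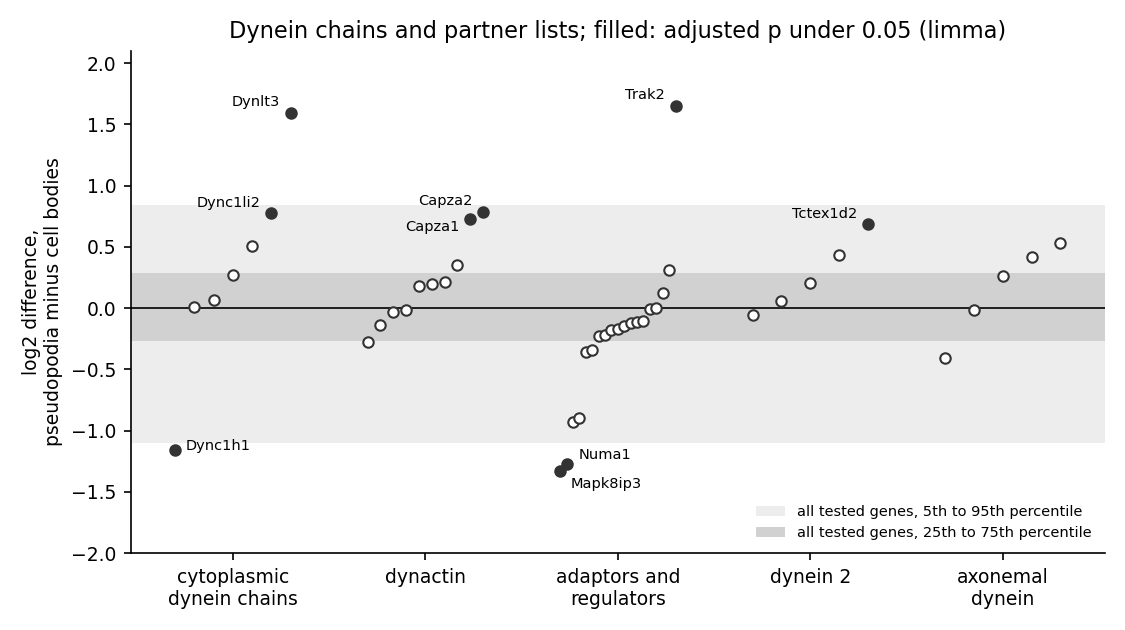
Log2 difference (pseudopodia minus cell bodies) of each tested cytoplasmic dynein gene and of each tested gene in the 4 partner lists that had any, filled where the adjusted p over 11320 genes was under 0.05, with grey bands for the 25th to 75th and 5th to 95th percentiles of all tested genes. Dynlt3 and Trak2 lie near 1.6, and Dync1h1, Numa1 and Mapk8ip3 lie under the 5th percentile of -1.10.

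Genes nearest to Dync1h1 and Dynlt3 in pattern were found by the distance between log2 values of the 4 arrays after centring each gene on its own mean. For Dync1h1 they were the lysosomal protease Ctsl (distance 0.051), the stress protein Herpud1 of the endoplasmic reticulum (0.052) and Mfsd14a (0.071), against a median distance of 1.21 over all tested genes. For Dynlt3 they were the centromere protein Cenpk (0.079), the mRNA export factor Thoc1 (0.086) and Trak2 (0.11), against a median of 1.65. These distances rest on 4 arrays. The genes were picked for their small distances, so the gap to the median is no result by itself.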

How the data were processed

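RNA was measured on 4 Affymetrix arrays of 1 chip type and lot, per the array records. The authors deposited 1 linear intensity for each probe set and array, none under a floor of 20. How probes were summarised and arrays scaled is not stated in the labels or headers. Scanner files were not used here.

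Log2(intensity + 1) was computed, and 64 control probe sets were left out. Each gene was represented by its brightest probe set with 1 symbol, and genes below log2 5.42, the median over non-control probe sets, were left out. Groups were compared in R 4.3.3 by limma 3.58.1 (two-sided moderated test from lmFit and eBayes, 2 residual and 2.90 prior degrees of freedom, Benjamini-Hochberg over all genes or all probe sets). Gene symbols are those of the platform annotation, and all 8 gene IDs matched RefSeq. No coordinates or sequences are given, since no source used here names the build behind the probes. A planned description by protein length was not made, as no protein table was used.

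The members and lists were chosen with earlier results of these data known. Named genes were all members, partner genes past the threshold, the brightest of each list, Dctn1, Pafah1b1, Nde1, Ndel1, Bicd2, Hook3 and the 3 nearest patterns; Dync2h1, Dnali1, second probe sets, Dynlrb2 and Dynlt1f were added after their values were seen. Alternatives were quantile normalization, median centring, 2 filters, a pseudocount of 16, an intensity trend, a replicate block, other probe set choices and each array left out. Having 2 arrays in each compartment limits the precision.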

Additional observations from a re-analysis of the deposited data

How the results depend on the processing

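With 1 array left out, limma called 0 genes (2792 to 2883 at an unadjusted p under 0.05), 0 probe sets (4605 to 5845), 0 partner genes (8 to 10), 0 dynein genes (3 to 4) and 0 dynein probe sets (8 to 9), while the heavy minus light value stayed at -1.74 to -1.69. Without a filter, which adds probe sets at the floor, the counts were 2, 73, 0, 0 and 0 (4 dynein genes at an unadjusted p under 0.05), and with an intensity trend 2564 genes and 4440 probe sets were called. The heavy minus light value moved to -1.93 with all probe sets averaged and to -1.97 without probe sets named _s_at, _x_at or _a_at. After quantile normalization 840 genes were higher and 896 lower in pseudopodia. Values near 0 turned sign: Dynlrb1 and its probe set to -0.022 with median centring and over -0.11 to 0.13 with an array left out, Dynll1 over -0.0016 to 0.13 (0.24 with all its probe sets averaged), and its probe set 1448682_at to -0.0030 with median centring and over -0.030 to 0.092. Dync1h1, Dync1li2 and Dynlt3 kept their direction in all 13 alternatives and passed in 8 of the 9 that used all arrays. Probe set 1439950_at of Dync1h1 passed with quantile normalization (adjusted p = 0.0409), median centring (0.0046), a pseudocount of 16 (0.0430) and an intensity trend (0.0188). The labels do not say whether the replicate numbers pair the samples, and the correlation of 0.34 between same-numbered deviations, from 2 pairs, does not settle it. A replicate block called 2202 genes, 3350 probe sets, 3 dynein genes and 6 dynein probe sets in place of 7.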
